A study of Mus musculus with 2 samples.

Results

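The genes described here encode the machinery that fills, docks and releases synaptic vesicles. They are 43 protein-coding genes taken by name from 21827 in the GENCODE M21 annotation, in 9 families: synaptotagmins (14 genes), synapsins (3), the vesicle membrane proteins Syp and Sv2 (4), Rab3 GTPases (4), complexins (4), SNARE proteins (4), Unc13 priming factors (3), Rims scaffold proteins (4) and vesicular glutamate transporters (3). The list was chosen by gene name and not by any measured value, but with earlier results of these data known. Their chromatin accessibility was measured by DNase-seq in mouse hippocampus. The series held 1 group of 2 biological replicates of tissue labelled layer of hippocampus, with no layer named. Each replicate was a pool of 2 biosamples from male mice of B6CASTF1/J, the hybrid of strains C57BL/6J and CAST/EiJ, aged 8 to 10 months, with no treatment named in the labels. Both pools carried the same donor label, so the spread between them may be technical, and with no second condition no test between groups was possible.

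When an action potential reaches a nerve terminal, calcium entry makes docked vesicles fuse with the plasma membrane. The SNARE proteins on vesicle and plasma membrane zip together, Unc13 and Rims proteins prepare vesicles at the active zone, complexins hold the assembled complex, and synaptotagmins sense calcium. In DNase-seq the enzyme DNase I cuts DNA that is not covered by nucleosomes, so a cluster of cuts (a peak) marks an accessible promoter or distal element, and a short protected stretch inside it (a footprint) marks a candidate site of protein binding. Many genes of neurons carry the RE1 element, which binds the repressor REST in other cell types.

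Replicate 1 had 144270 peaks and replicate 2 had 124426, and heights are in the authors' own units, whose scale is not stated. Heights were lower in replicate 2, with a median log2 ratio of -0.19 over 101938 pairs of peaks. Promoter peaks of the marker genes of excitatory neurons (6 of 6), astrocytes (4 of 5) and oligodendrocytes (3 of 5) were found in both replicates, against 62.6% of all genes, a share that the count for oligodendrocytes does not exceed. For markers of other cells the counts were 2 of 6 (inhibitory neurons), 2 of 4 (choroid plexus), 1 of 5 (microglia), 1 of 5 (endothelium) and 1 of 4 (cerebellum). In a tissue of mixed cells a low peak cannot be told apart from a tall peak in few of the cells. Values below are for replicate 1 and replicate 2 in that order unless said otherwise, and a mean carries its SD (n = 2). Positions are in the mm10 build.

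The sequences below carry the promoter features described later. The first set shows 9-base matches to the motif of EGR factors (GCGTGGGCG), proteins that neuronal activity induces, in the promoter peaks of Vamp2, Unc13a and Syt12, with the match in capitals. All sequences are the GRCm38 reference from RefSeq, whose chromosomes are those of mm10, and not the alleles of these mice.

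Vamp2, EGR match (chr11:69088456-69088489, minus strand): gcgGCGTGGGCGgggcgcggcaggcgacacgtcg
Unc13a, EGR match (chr8:71671758-71671804, plus strand): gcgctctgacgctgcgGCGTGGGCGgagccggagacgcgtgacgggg
Syt12, EGR match (chr19:4478001-4478053, plus strand): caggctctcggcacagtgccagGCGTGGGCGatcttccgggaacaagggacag

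The second set shows the 14-base RFX match upstream of Syt5 and the 10-base NRF1 match upstream of Syn1, each in capitals and each overlapped by a footprint in both replicates. The Syt5 sequence lies in an intron of the longer Syt5 transcripts, but in the comprehensive annotation all 58 of its bases lie in an exon.

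Syt5, RFX match (chr7:4546689-4546746, plus strand): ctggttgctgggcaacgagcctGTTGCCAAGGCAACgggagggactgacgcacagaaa
Syn1, NRF1 match (chrX:20921138-20921191, plus strand): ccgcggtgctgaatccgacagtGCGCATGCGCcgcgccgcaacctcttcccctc

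The third set shows matches to the 16-base RE1 core near start sites, with the match in capitals. The core searched is spelled by the capitals of either Snap25 line, with any base allowed at positions 9 and 10. Positions in the core are counted from 1 at its 5′ end, and a substitution gives the base of the core first and that of the site last. The Syn1 match carried A13T, the Slc17a6 match C5G and the Syp match T1C, and the Snap25 and Syt6 matches had no mismatch. The label intron was given from coding and untranslated exon parts in the basic annotation. In the comprehensive annotation all 50 bases of the Syp sequence lie in an exon.

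Snap25, RE1 match 1, intron (chr2:136714272-136714321, plus strand): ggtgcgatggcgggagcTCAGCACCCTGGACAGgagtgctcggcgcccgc
Snap25, RE1 match 2, intron (chr2:136714322-136714371, plus strand): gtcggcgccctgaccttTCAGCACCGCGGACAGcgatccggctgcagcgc
Syn1, RE1 match, upstream (chrX:20921112-20921171, minus strand): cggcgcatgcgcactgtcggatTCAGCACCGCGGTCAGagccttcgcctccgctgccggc
Slc17a6, RE1 match, upstream (chr7:51621842-51621901, minus strand): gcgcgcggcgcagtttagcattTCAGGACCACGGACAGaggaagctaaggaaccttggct
Syp, RE1 match, intron (chrX:7638721-7638770, plus strand): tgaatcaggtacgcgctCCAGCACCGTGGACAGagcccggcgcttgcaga
Syt6, RE1 match, upstream (chr3:103573973-103574022, plus strand): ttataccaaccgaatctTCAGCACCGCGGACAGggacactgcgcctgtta

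The fourth set shows the middle of 2 tall distal peaks, upstream of Slc17a7 and downstream of Syt3, and the 200 bp before the internal start site of Rims2. Here capitals mark the bases that lay inside footprints of both replicates.

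Slc17a7, distal peak, upstream (chr7:45162131-45162430, plus strand): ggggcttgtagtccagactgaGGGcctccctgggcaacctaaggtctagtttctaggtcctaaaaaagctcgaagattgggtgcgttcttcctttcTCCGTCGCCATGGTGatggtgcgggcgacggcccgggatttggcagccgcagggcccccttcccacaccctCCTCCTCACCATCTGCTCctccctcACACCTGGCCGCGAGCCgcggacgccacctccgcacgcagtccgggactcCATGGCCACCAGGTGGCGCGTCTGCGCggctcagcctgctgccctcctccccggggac
Syt3, distal peak, downstream (chr7:44405681-44405980, plus strand): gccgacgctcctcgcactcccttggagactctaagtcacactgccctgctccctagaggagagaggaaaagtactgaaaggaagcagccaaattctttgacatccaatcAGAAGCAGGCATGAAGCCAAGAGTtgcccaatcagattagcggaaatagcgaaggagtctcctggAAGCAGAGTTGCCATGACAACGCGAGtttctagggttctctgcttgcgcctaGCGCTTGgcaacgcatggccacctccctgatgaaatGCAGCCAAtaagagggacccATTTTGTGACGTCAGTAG
Rims2, before the internal start site (chr15:39659366-39659565, plus strand): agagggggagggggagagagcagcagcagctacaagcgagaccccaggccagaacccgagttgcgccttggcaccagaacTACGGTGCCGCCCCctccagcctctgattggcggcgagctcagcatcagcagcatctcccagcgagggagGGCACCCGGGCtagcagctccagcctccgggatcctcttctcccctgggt

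Nearly all of the release genes had an accessible promoter. A promoter was the window of 1000 bp to each side of any protein-coding start site, and it was called open when a peak overlapped it by 1 bp or more. Of the 43 genes, 39 (90.7%) were open in both replicates, against a background of 62.6% of all 21827 genes. Syt6 was open in replicate 2 alone, and Cplx3, Cplx4 and Slc17a8 were open in neither, which held for 34.0% of all genes. The families of synapsins, SNAREs, Rab3, Unc13, Rims and Syp with Sv2 were open in full.

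The promoter peaks of the open release genes were lower than those of most open genes. Their median height was 1.96 in replicate 1 and 1.5 in replicate 2, against 3.59 and 2.89 over all 13666 genes open in both. Only 9 of the 39 had a mean height above the median of all open genes (3.26). These were Rab3a, Syt11, Syt5, Vamp1, Syn3, Syt1, Syn2, Vamp2 and Rab3d. The mean of the replicate medians was 1.73 ± 0.324, and it was 2.42 on the shorter, stricter peak list, where the medians of all open genes were 3.92 and 3.14.

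**Figure D1:**
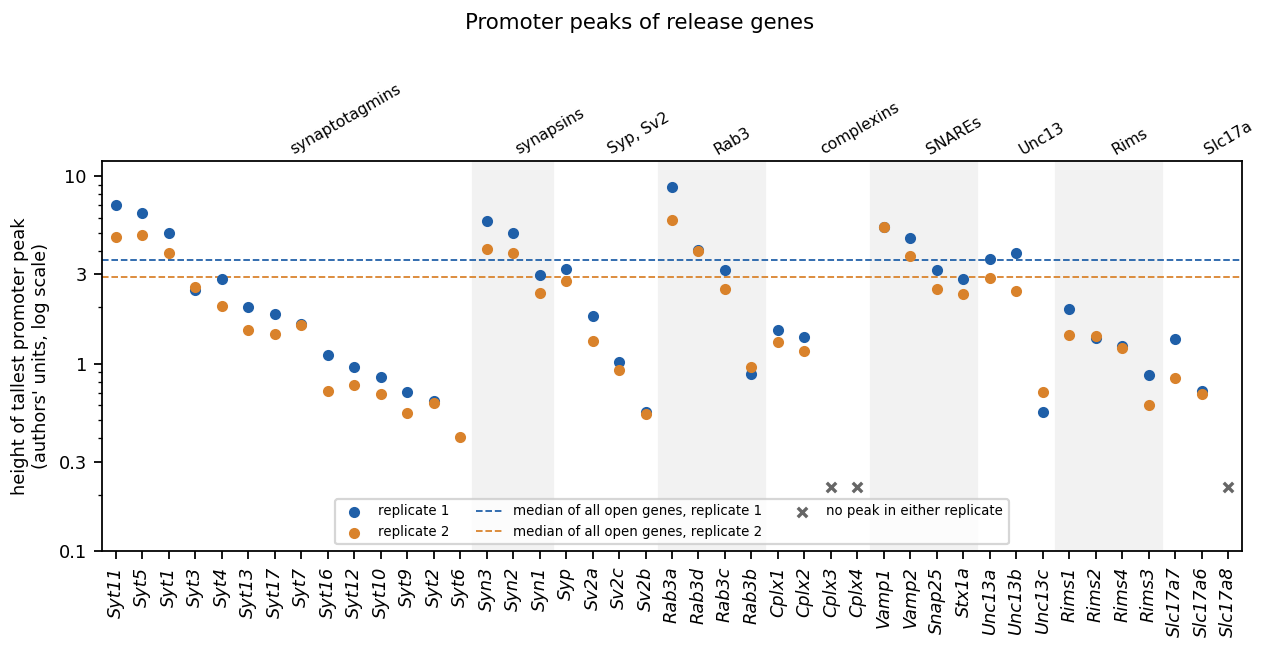
Height of the tallest promoter peak (y axis, authors' units, log scale) of each of the 43 release genes (x axis, by family, tallest first) in replicate 1 (blue) and replicate 2 (orange), with the medians of all open genes as dashed lines (3.59 and 2.89) and crosses for genes with no peak in either replicate. Rab3a stood highest at 8.76 and 5.80, and within the synaptotagmins heights ran from 6.99 and 4.75 at Syt11 to 0.63 and 0.613 at Syt2, with Syt6 called in replicate 2 alone.

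Synaptotagmins bind calcium and phospholipids, although several members of the family lack calcium binding. Syt1, the sensor of fast synchronous release in forebrain neurons, had a promoter peak of 4.97 and 3.88 at chr10:109010861-109011120 (replicate 1). Syt2, the fast sensor of the brainstem and spinal cord, stood at 0.630 and 0.613. Both replicates of Syt1 lay above both replicates of Syt2, by 7.89-fold and 6.33-fold. Syt7, a slow high-affinity sensor of asynchronous release and facilitation, stood between them at 1.62 and 1.61.

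The tallest synaptotagmin promoters were not those of the classic release sensors. Syt11, which does not bind calcium, had 6.99 and 4.75, and Syt5 had 6.34 and 4.86. The replicate ranges of Syt11 and Syt5 overlapped, and that of Syt1 (3.88 to 4.97) reached into both. Syt3, a sensor also linked to the endocytosis of postsynaptic receptors, had 2.47 and 2.57, and Syt4, which has lost calcium binding in its first C2 domain, had 2.82 and 2.04. Their ranges overlapped as well.

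Next came Syt13 with 2.00 and 1.5 and Syt17 with 1.84 and 1.43, both atypical members. Lower still were Syt16 (1.12 and 0.710), Syt12 (0.965 and 0.768), Syt10 (0.847 and 0.684) and Syt9 (0.709 and 0.542). These 4 lay below both replicates of Syt13, but their own ranges overlapped from one gene to the next. Syt9, a fast sensor of some forebrain neurons, and Syt10 had low peaks that were wide, 460 and 980 bp at Syt9 and 580 and 640 bp at Syt10, against a median of 260 and 240 bp over the open release genes. The tallest peaks of the replicates did not overlap at Syt7, Syt12 and Syt16, so their heights compare different sites of one promoter. At Syt2 and Rims3 they did not overlap either, and they stood at start sites 62619 and 23050 bp apart. The replicate values of Syt2 and Rims3 therefore compare different promoters of the gene.

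Syt6 had no promoter peak in replicate 1, where the closest peak was 11019 bp away from any of its start sites. Replicate 2 called a peak of 0.407, 376 bp from a start site. The false discovery rate file of replicate 1 listed 0 bp of the Syt6 windows at 0.05 or less, and that of replicate 2 listed 166 bp. The exact RE1 match shown above lay at -1233 bp from its start site, in a replicate 2 peak of 0.394. A replicate 2 footprint touched 1 of its 16 bases, and 13155 bp lay between it and the closest replicate 1 peak.

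Synapsins tether vesicles to each other and to actin in the reserve pool. All 3 were open, with a median of the gene means of 4.41, the highest of the 9 families. Syn3, the member of early neuronal development, had 5.80 and 4.10, and Syn2 had 4.96 and 3.87. Syn1, the gene whose promoter is often used to drive neuronal transgenes, was lower at 2.97 and 2.39, with both values below those of Syn2 and Syn3. Syn1 lies on chromosome X, of which male cells carry 1 copy, and the heights were not corrected for copy number.

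Among the vesicle membrane proteins Syp, synaptophysin, had the tallest promoter peak, 3.18 and 2.77, and it too lies on chromosome X. The Sv2 genes encode transporter-like glycoproteins of the vesicle. Sv2a, the target of the antiepileptic drug levetiracetam, had 1.79 and 1.32, Sv2c had 1.02 and 0.930, and Sv2b had 0.551 and 0.536. The 3 ranges did not overlap, so the order Sv2a, Sv2c, Sv2b held in each replicate. Sv2b was the lowest of the 39 open release genes by mean height, at percentile 5.06 of all open genes, and it was not open on the shorter peak list.

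Rab3 GTPases carry vesicles to the active zone through the Rims proteins. Rab3a, the main form in brain, had the tallest promoter peak of all 43 genes, 8.76 and 5.80 at chr8:70754461-70754740 (replicate 1; mean 7.28 ± 2.10, percentile 86.2). Its range overlapped those of Syt11 and Syt5 but lay above both values of Vamp1. Rab3d, best known from exocrine cells, followed with 4.04 and 3.99 and Rab3c with 3.16 and 2.50. Rab3b had 0.879 and 0.956, below every value of the other 3 genes, which made the tallest over the lowest Rab3 promoter 9.96-fold and 6.07-fold.

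Complexins clamp and then assist SNARE complexes. Cplx1 (1.5 and 1.30) and Cplx2 (1.39 and 1.17), the forms of central synapses, had low promoter peaks with overlapping ranges. A peak of 3.78 and 3.22 lay in an intron of Cplx2, 1552 bp from its start site, and with windows of 2000 bp it counted as the promoter peak, which moved the mean height of Cplx2 from 1.28 to 3.50. Cplx3 and Cplx4, known from ribbon synapses of the retina, had none. The closest peaks were 3438 and 3458 bp away at Cplx3 and 4937 bp away in both replicates at Cplx4. The false discovery rate files listed 0 bp of these windows at 0.05 or less in either replicate.

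The SNARE genes were open in full, with a tallest over lowest promoter of 1.88-fold and 2.28-fold. Vamp1 and Vamp2 encode the synaptobrevins of the vesicle, and Stx1a and Snap25 encode their partners on the plasma membrane. Vamp1, the form prominent in brainstem and spinal cord, had 5.34 and 5.37. Vamp2, the main form of the forebrain, had 4.65 and 3.76, below Vamp1 in each replicate. Snap25 (3.14 and 2.51) and Stx1a (2.84 and 2.35) overlapped with each other and lay below both.

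Unc13 proteins make docked vesicles ready for fusion. Unc13a, the main priming factor of glutamate synapses, had 3.62 and 2.87, and Unc13b had 3.89 and 2.43, with overlapping ranges. Unc13c, known mainly from cerebellum, had 0.551 and 0.704, 6.57-fold and 4.08-fold below Unc13a. The tallest promoter peak of Unc13c, of 240 and 460 bp, held 0 footprints in replicate 1 and 7 in replicate 2. All its promoter peaks together, 2 in replicate 1 and 1 in replicate 2, held 2 and 7.

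Rims proteins link Rab3, Unc13 and calcium channels at the active zone. Rims1 had 1.96 and 1.42, Rims2 had 1.37 and 1.40, Rims4 had 1.247 and 1.214, and Rims3 had 0.866 and 0.601. The Rims2 values are those of an internal start site that starts a short transcript. The 5′ promoter of Rims2 had 1.04 and 1.15, below Rims4 in each replicate. The replicate 1 value of Rims3 also belongs to an internal start site. All values of Rims3 lay below those of the other 3. Rims1 and Rims2 carry the full set of domains and Rims3 and Rims4 are short forms. The replicate ranges of Rims1 and Rims2 did not overlap, although the replicate 2 values were 1.42 and 1.40.

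Vesicular glutamate transporters load glutamate into vesicles and mark the transmitter of a neuron. Slc17a7, the transporter of hippocampal pyramidal and granule cells, had a promoter peak of only 1.35 and 0.839. Slc17a6, the transporter of thalamus and brainstem, had 0.715 and 0.684, below both. Slc17a8, found in few scattered neurons, had no promoter peak, and the closest peaks were 6747 and 6675 bp away. On the shorter peak list Slc17a6 and Slc17a7 were no longer open in both replicates, nor were Cplx2, Sv2b and Rims3, which left 34 of 43 against a background of 58.0% of all genes.

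Promoters rich in CpG dinucleotides are accessible in most tissues, so height was set beside the CpG observed/expected ratio, taken 500 bp to each side of each start site, with the largest ratio kept for each gene. The median ratio of the 39 open release genes was 0.656, against 0.745 over all open genes. Only 8 of the 39 fell in the top 3 deciles of all genes, where 46.1% of all open genes fell. Across the 39 genes Spearman's rho of CpG ratio and mean height was -0.06, against 0.37 across all 13666 open genes. In 5 of the 39 (Syt11, Syt17, Rab3b, Rims2 and Rims3) the tallest peak stood at a start site whose ratio was lower by more than 0.1. With the ratio of the start site nearest to the tallest peak, chosen after seeing the data, rho was -0.011 and 0.38 and the medians were 0.604 and 0.733. These are descriptions across genes of the same libraries, and genes are not independent replicates.

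Compared with open genes of the same CpG decile, 15 of the 39 were above the decile median. Syn3 stood at 4.95 ± 1.20 against a decile median of 1.31, Syt5 at 5.60 ± 1.04 and Syt1 at 4.42 ± 0.769 against 2.21. Several promoters with high CpG ratios stood below their decile. Syt9 stood at 0.626 ± 0.118 against 4.31, Rims4 at 1.23 ± 0.0234 against 4.31, and Syt7 at 1.61 ± 0.00936 against 4.18. Others were nearer to it or above, with Unc13b (ratio 0.909) at 3.16 ± 1.03 against 4.18 and Syn2 (0.820) at 4.41 against 4.04. At Rims2 the largest ratio, 0.904, was that of the 5′ promoter, whose own mean height was 1.09.

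**Figure D2:**
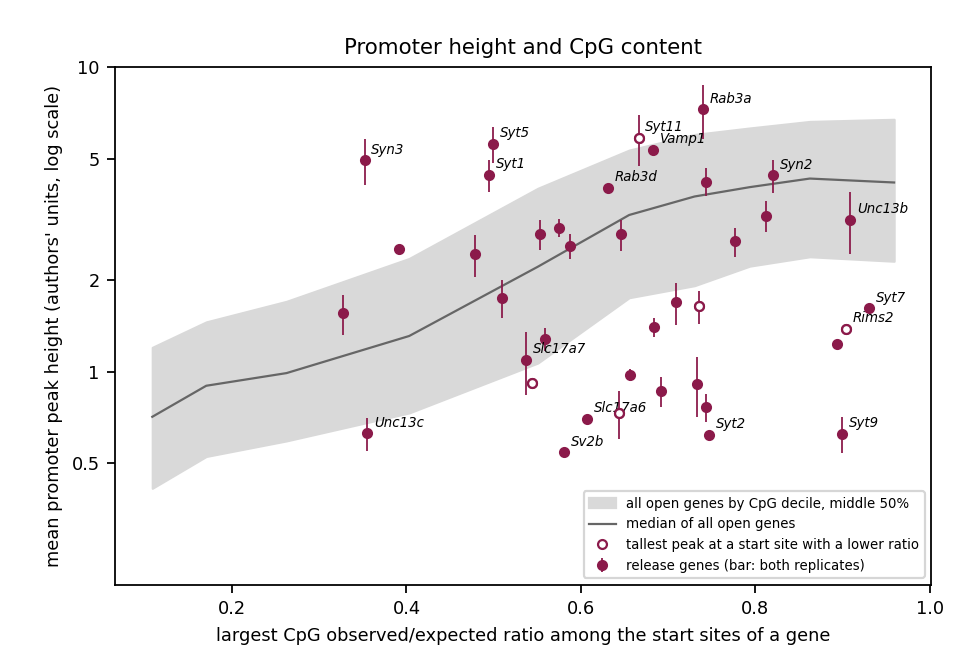
Mean promoter peak height (y axis, authors' units, log scale) against the largest CpG observed/expected ratio of a gene's start sites (x axis) of the 39 release genes open in both replicates (points, bars span the replicates, open circles for the 5 genes whose tallest peak is at a start site with a ratio lower by more than 0.1), over the median and the middle 50% of all 13666 open genes by CpG decile (line and grey band). Syn3, Syt5 and Syt1 stood above the band at ratios of 0.352, 0.499 and 0.495, and Syt9 and Syt7 stood below it at ratios of 0.899 and 0.930.

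Several release genes have more than one promoter, and the replicates placed the tallest peak at the same one in most. At Syt11 the start site 2565 bp downstream of the annotated 5′ end carried the tall peak, 6.99 and 4.75, and the 5′ end itself had 0.735 in replicate 1 and none in replicate 2. With gene 5′ ends as the only start sites Syt11 was therefore not open in both replicates, and 38 genes were. At Syt17 the site 4662 bp downstream had 1.84 and 1.43 and the 5′ end 1.33 and 1.07. The downstream site was higher in each replicate, and the 2 ranges did not overlap.

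Rims2 had peaks at both ends of a gene of 486.1 kb. Its 5′ promoter, with a CpG ratio of 0.904, had a tallest peak of 1.04 and 1.15. The internal start site 461234 bp downstream, which starts a short transcript, had 1.37 and 1.40, above the 5′ promoter in each replicate, with a CpG ratio of 0.494. The sequence before that site, shown above, held 25 bases inside footprints of both replicates. At the 5′ promoter 4 peaks were called in each replicate.

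Unc13b showed the opposite order. Its 5′ promoter had 3.89 and 2.43, and the site 150529 bp downstream had 2.15 and 1.17, with no overlap of the ranges. At Syt2, sites 62619 bp apart had nearly equal peaks, 0.584 and 0.613 at the 5′ site and 0.630 and 0.607 at the downstream one. At Rab3b the 5′ site had 0.768 and 0.839, and the peak of 0.879 and 0.956 counted for the site 11227 bp downstream lay 691 and 671 bp from it.

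Rims3 depended on the replicate. Its 5′ site had 0.459 and 0.601 and the site 23050 bp downstream 0.866 and 0.471, so the taller promoter differed between replicates, and the second peak lay 972 and 977 bp from its start site, near the limit of the window. No peak in either replicate lay within 1000 bp of the internal start sites of Sv2b (89243 bp downstream), Sv2c (43711 bp), Unc13c (35399 bp) and Rims1 (490189 bp).

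**Figure D3:**
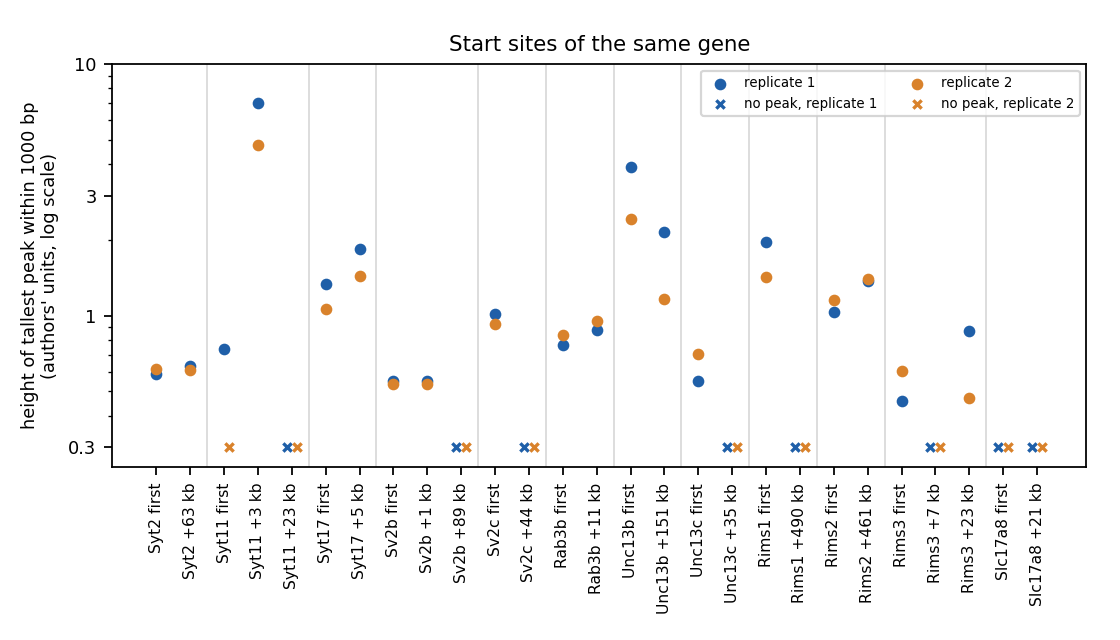
Height of the tallest peak within 1000 bp of each start site (y axis, authors' units, log scale) for the 12 release genes with start sites over 2000 bp apart (x axis, with the distance from the gene's 5′ site in kb) in replicate 1 (blue) and replicate 2 (orange), with crosses at the bottom where no peak was called. Syt11 was high at the site 2565 bp downstream (6.99 and 4.75), and Rims2 had a peak at its internal site (1.37 and 1.40) as well as at its 5′ site (1.04 and 1.15).

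The heights of the replicates were about as close at these promoters as over all open genes. After centring on the median of all pairs of peaks, 0 of 39 release genes differed by more than 1.5-fold, against a background of 3.23% of all open genes. Unc13c (log2 0.54), Slc17a7 (-0.50), Unc13b (-0.49) and Syt16 (-0.46) differed the most. As deposited, 34 of the 39 were lower in replicate 2, and after centring 27 of 39 were, against 71.1% of all open genes. The median centred log2 ratio was -0.138 for the release genes and -0.136 for all open genes.

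Footprints were found in promoter peaks of all 39 genes in both replicates, as they were for 97.3% of open genes. Promoter peaks of the release genes held 277 and 271 footprints. In the tallest peaks, 111 of 177 replicate 1 footprints (62.7%) were overlapped by a replicate 2 footprint, against 71.7% over all open genes. Unc13a (5 of 5), Vamp2, Syn1, Sv2a and Rims4 (3 of 3 each) had every replicate 1 footprint matched. So did Syt12, Syt13, Rab3b and Slc17a6 (2 of 2 each), and Syt9 had 1 of 6. At Syt2 (3 footprints), Syt16 (8), Sv2b (3) and Cplx2 (1) none was matched. The tallest peaks of the replicates were different peaks at Syt2 and Syt16 but overlapped at Sv2b and Cplx2, and at Syt7 (4 of 5) and Syt12 (2 of 2) footprints were matched although the tallest peaks did not overlap.

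The EGR motif stood at the promoters of Vamp2, Unc13a and Syt12. In 200 bp at the midpoint of the tallest promoter peak it was found in 3 of 39 release genes (7.69%) in replicate 1, against 1.12% of all such windows, and in 2 of 40 (5.0%), Vamp2 and Unc13a, against 1.13% in replicate 2. The match lay 8 bp upstream of the Vamp2 start site, 21 bp upstream of Unc13a and 580 bp upstream of Syt12. At each of the 3 a footprint of both replicates overlapped it, of 35 and 37 bp at Vamp2, 22 and 19 bp at Unc13a and 30 and 24 bp at Syt12. Of all EGR matches in the tallest promoter peaks of replicate 1, 80.2% had footprints of both replicates.

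Matches to other motifs lay near the start sites of Syt5, Syn1 and Snap25. The RFX match of Syt5, 151 bp upstream of its start site, lay under footprints of 36 and 37 bp. The RFX motif is the capitals shown above with any base at positions 7, 8 and 11, and 0.445% and 0.46% of all windows held it. Of all RFX matches inside the tallest promoter peaks of replicate 1, 78.9% had footprints of both replicates. The NRF1 match of Syn1, the exact 10 capitals shown, 161 bp upstream, was overlapped by footprints of 14 and 12 bp. Of all NRF1 matches inside the tallest promoter peaks of replicate 1, 95.7% had footprints of both replicates. The Syn1 match lay across the edge of its replicate 1 peak, so it was not among them. The cAMP response element TGACGTCA was found 70 bp upstream of Syn1 and 14 bp upstream of Snap25, the only release genes with it in the 200 bp windows (5.13% and 5.0%, against 3.4% and 3.48% of all windows). In both genes a footprint overlapped it in replicate 2 and not in replicate 1. Of all such matches inside the tallest promoter peaks of replicate 1, 89.2% had both.

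The short SP/KLF motif GGGCGG was in 76.9% and 72.5% of the windows of release genes, against 57.8% and 56.8% of all windows. No release gene had the ETS motif CCGGAAGT in its window (0 of 39 and 0 of 40), which 6.72% and 6.9% of all windows held. None had the NRF1 motif (2.02% and 2.09%) or the CTCF motif (CCA, any 2 bases, AG, any base and GGG; 2.76% and 2.9%) there either, since the Syn1 match lay outside the window. Outside its window the tallest peak of Syt5 held an ETS match 39 bp upstream of the start site, overlapped by footprints of 20 and 11 bp. A match is a stretch of letters and does not show which protein was bound, and its absence in 200 bp says nothing of the factor.

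RE1 matches were found near the start sites of release genes. With at most 1 mismatch the core lay within 1000 bp of a start site of 5 of 43 (Syt4, Syn1, Syp, Snap25 and Slc17a6), against 0.761% of all genes (166 of 21827). Syn1 and Slc17a6 had it 138 and 134 bp upstream, inside the promoter peak of both replicates and under no footprint. At Syp it lay 275 bp downstream across the edge of the promoter peak, with 3 of its 16 bases inside the peak in both replicates and 7 in a footprint of replicate 2 alone. At Syt4 an exact match lay 216 bp downstream, inside the replicate 2 peak and 83 bp beyond the replicate 1 peak. A match with 2 mismatches lay 301 bp from the start site of Rab3a, in a replicate 1 peak of 0.663 and in no replicate 2 peak. Most RE1 matches in peaks lay under no footprint, except the exact matches in replicate 2. Of all exact matches in peaks, 45.2% and 55.1% were overlapped by a footprint of the same replicate. With 1 mismatch the shares were 36.3% and 43.9%, and with 2 mismatches 24.8% and 28.4%. In the tallest promoter peaks of replicate 1, 27.9% of 104 matches with up to 2 mismatches had footprints of both replicates.

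Snap25 had 2 exact copies, 819 and 869 bp downstream of its start site in an intron. Replicate 1 called a peak of 1.15 over both, and in replicate 2 the nearest peak (0.833) ended 28 and 78 bp away, with 11 bases of the second copy in a footprint. Elsewhere in the release genes an exact match lay in an intron of Syt7, 241 bp from a peak in each replicate (3.26 and 2.14), and another in an intron of Syt2, 13317 and 9405 bp from any peak. Over the whole genome 13.8% of 376 exact matches lay in a peak of both replicates, and 4.23% of 2102 matches with 1 mismatch.

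Distal peaks were counted in the gene body and 10000 bp to each side, leaving out every promoter window. The release genes had 388 and 320 of them, of which 270 (69.6%) and 271 (84.7%) were overlapped by a peak of the other replicate, against 69.1% and 82.5% over all genes. At least 1 shared distal peak was found for 41 of 43 genes, against 67.2% of all genes, all but Syt10 and Sv2a. A longer gene has more room for such a peak. This share was not matched for gene length, so whether it exceeds that of genes of similar length was not tested. Per 10 kb the median was 0.776 and 0.700, against 0.424 and 0.367 over all genes, and on the shorter list it was 0.445 and 0.360, against 0.231 and 0.180. The median height of a distal peak was 0.715 and 0.681, against 0.584 and 0.581 for all distal peaks, and 300 and 235 of them were intronic.

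Syn3 had the most shared distal peaks, 35 in 443.8 kb, followed by Syt1 with 21, Syt16 with 16 in replicate 1 and 15 in replicate 2, Sv2b with 15, and Syn2 with 14 and 13. All 5 are long genes, from 147.1 kb at Syn2 to 513.3 kb at Syt1. Other genes start inside some of these regions, among them Timp3 inside Syn3 and Timp4 inside Syn2. Of 269 shared distal pairs 102 (37.9%) lay nearer to the start site of another protein-coding gene, so they are assigned by position only.

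Per 10 kb 3 short genes had the highest means. Rab3a had 4.17 and 2.50, Vamp2 had 2.09 and 4.60, and Slc17a7 had 2.48 and 1.55, which in replicate 2 was no higher than Cplx1 (0.777 and 1.55). Other short genes were low, among them Syt5 with 0.360 in each replicate. The count at Vamp2 rose from 5 to 11 between replicates and the shared ones were 4, so much of its density came from peaks of 1 replicate. At the other end Syt10 had 0.252 and 0, Sv2a had 0.291 and 0, and Unc13c had 0.157 in each replicate.

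**Figure D4:**
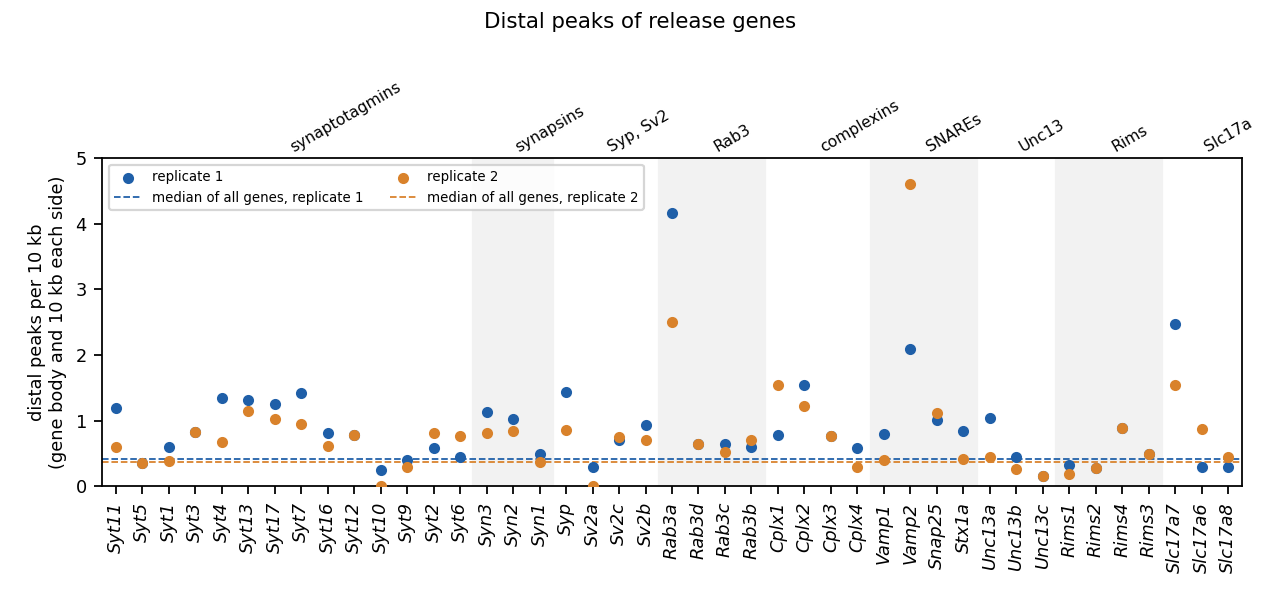
Distal peaks per 10 kb of gene body and flanks (y axis) of each release gene (x axis, by family in the order of promoter height) in replicate 1 (blue) and replicate 2 (orange), with the medians of all genes dashed (0.424 and 0.367). Rab3a (4.17 and 2.50), Vamp2 (2.09 and 4.60) and Slc17a7 (2.48 and 1.55) had the highest means, and Cplx1 equalled Slc17a7 in replicate 2.

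Some distal peaks were taller than the promoter of their gene. Upstream of Slc17a7 a peak of 5.91 and 4.47 at chr7:45162081-45162480 (replicate 1) had its midpoint 1668 bp before the start site. It lay outside the 1000 bp window, and it exceeded the promoter peak of 1.35 and 0.839 in each replicate. With windows of 2000 bp it counted as the promoter peak of Slc17a7. It held 7 and 8 footprints, which cover the capitals of the sequence above, among them a CAGATGG match read on the minus strand.

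Syt3 had 2 such peaks. One at chr7:44405661-44406000, 20963 bp downstream of its nearest start site, was the tallest distal peak of the set, with 8.55 and 6.63. It held 6 footprints in each replicate and the element TGACGTCA under a footprint of both, in the capitals near the end of the sequence shown. The other, at chr7:44382601-44382800, lay 1401 bp upstream with 4.40 and 4.22 and held 2 CAGATGG matches, each overlapped by footprints of both replicates. Both exceeded the Syt3 promoter peak of 2.47 and 2.57. With windows of 2000 bp the upstream one counted as the promoter peak of Syt3, whose mean height became 4.31.

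The other tall distal peaks were those of Vamp2, Stx1a and Rab3b. The one downstream of Vamp2 (7.25 and 5.73 at chr11:69097021-69097300) lay 1787 bp from a start site of the clock gene Per1, which is nearer than Vamp2 at 8651 bp. That of Stx1a (3.62 and 3.95 at chr5:135015581-135015780) lay at -7801 bp from its start site and 6225 bp from that of Abhd11. The peak 8892 bp upstream of Rab3b, at chr4:108870061-108870280, had 3.66 and 3.82, above the Rab3b promoter peak of 0.879 and 0.956, and no start site of another coding gene was nearer. The replicate ranges of the Stx1a and Rab3b peaks overlapped.

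**Figure D5:**
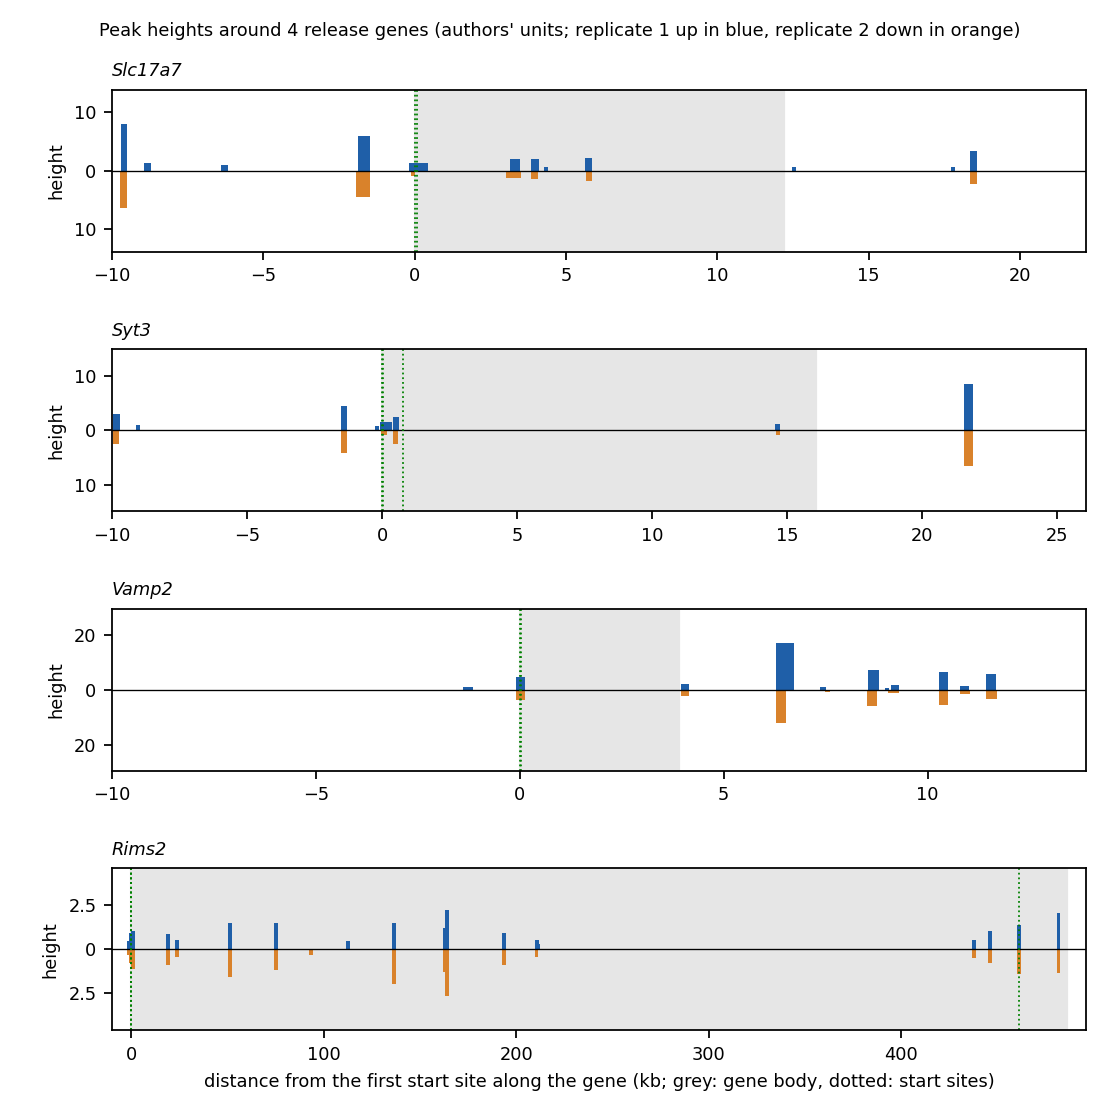
Peaks in and within 10 kb of Slc17a7, Syt3, Vamp2 and Rims2 by distance from the first start site (x axis, kb) and height (y axis, authors' units, replicate 1 up in blue, replicate 2 down in orange), with the gene body in grey, start sites dotted and narrow peaks drawn wider than they are. The tallest bars at Vamp2 (16.9 and 12.2) and at the left of Slc17a7 (7.95 and 6.32) are promoter peaks of Per1 and of Pih1d1 and Aldh16a1 and were not counted as distal.

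In 200 bp at the midpoint of distal peaks most motifs were about as frequent as in all distal peaks. The CAGATGG motif, read by NEUROD factors, was in 15.7% and 15.9% of those of the release genes, against 16.2% and 15.9%, and the AP-1 motif TGANTCA was in 11.9% and 12.5%, against 10.7% and 10.4%. The MEF2 motif, CTA and TAG with any 4 bases between, was in 4.12% and 4.69%, against 2.81% and 2.75%. The CTCF motif was in 3.35% and 2.81%, against 6.34% and 7.29%, which rests on 13 and 9 peaks.

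A list of other genes of vesicle release was set beside these. Of 52 genes for docking factors, active zone scaffolds, vesicle proteins and recycling, 47 (90.4%) were open in both replicates, against 62.6% of all genes. The tallest were Esyt2 (11.9 ± 2.68), a tether of endoplasmic reticulum and plasma membrane, Napa (11.7 ± 2.85), which takes SNARE complexes apart with Nsf, Snap29 (10.8 ± 1.64) and Rab5a (9.43 ± 2.28), a GTPase of early endosomes. None of these 4 is specific to neurons. The monoamine transporter Slc18a2, the acetylcholine transporter Slc18a3 and Syt15 were open in neither replicate, and Doc2a (0.505) and the GABA transporter Slc32a1 (0.643) in replicate 1 alone. The median of the open genes was 3.76 and 2.63, and that of 19 SNAREs and partners found in most cell types, all open (Vamp7 was not analysed here), was 4.55 and 3.34, each above the 1.96 and 1.5 of the 39 release genes in the same replicate.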

How the data were processed

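The samples were 2 DNase-seq libraries of mouse hippocampus, both in 1 group. Per the labels the assembly was mm10; the aligner, the callers and their versions: not given in the sources used here. The authors deposited peak heights (unit: signal, scale not stated) in a longer list (used here) and a shorter, stricter one (87039 and 74088 peaks, an alternative), called per sample. The heights were whole multiples of a step of 0.00656 and 0.00646, and the promoter peaks of the release genes held 84 to 1335 and 63 to 898 steps. If 1 step is 1 cut, counting error alone (95%, Poisson) is about 21% at the lowest and 5.4% at the highest in replicate 1 and 25% and 6.5% in replicate 2, and cuts of one fragment are not independent. The total number of cuts was not analysed here. The deposited false discovery rate files (a p-value or q-value type unit) list only intervals at 0.05 or less, and every deposited footprint carries the same 0.01, so footprints were not ranked. Peaks carry no measured summit, so midpoints were used.

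The 43 members and all lists and motifs were chosen with earlier results of these data known. Start sites came from protein-coding transcripts of GENCODE M21 (basic set), merged within 500 bp. Promoters spanned 1000 bp to each side, flanks 10000 bp, and overlaps of 1 bp counted. The tallest promoter peak gave the height of a gene. Heights were centred for the replicate comparison alone, on the median of mutually best paired peaks. Motifs were searched on both strands, exactly except for RE1 (up to 2 mismatches in 200 bp windows and in whole peaks, up to 1 elsewhere). The printed RE1 sequence of Syn1 also holds the NRF1 match of that gene, in the lower-case flank and outside the RE1 core. The text names all members, the 6 tallest shared distal peaks, the 5 genes with the most shared distal peaks, every RE1 match with at most 1 mismatch near a start site and, of the other release genes, the 4 tallest and those open in neither replicate. Matches far from start sites or with 2 mismatches, the 1 at Syt6, the peak in Cplx2, the internal start sites, the genes with the highest density and those open in 1 replicate were named after their values were seen. All 43 members were found in the annotation. With 1 group of 2 replicates no p-value was computed. The scripts were tested on simulated data. Tools were Python 3.11.15, numpy 2.4.6, pandas 2.3.3, matplotlib 3.10.9 and samtools 1.23.1. Mapping of reads from the CAST/EiJ chromosomes was not analysed here.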

Additional observations from a re-analysis of the deposited data

How the results depend on the processing

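The number of release genes open in both replicates, 39, was 34 on the shorter peak list and 38 with gene 5′ ends alone, and 39 with windows of 500 or 2000 bp, with peak midpoints, or with every start site of the comprehensive annotation (added after seeing the data). A single replicate gave 39 or 40. The median promoter height of 1.73 became 2.42 on the shorter list, 2.43 with windows of 2000 bp and 3.10 for the sum of all promoter peaks, and 1.47 to 1.96 with either replicate alone. Distal peaks shared by both replicates fell from 270 to 141 on the shorter list and came to 458 with a flank of 50000 bp, and the median of all distal peaks per 10 kb of 0.738 became 0.403 on the shorter list, 0.665 without a flank and 0.658 with 50000 bp. These settings change which peaks are counted. Without centring 4 release genes differed beyond 1.5-fold, and with a smaller fold as the limit after centring 7 did, against 0. Footprints in promoter peaks (274 on average, 271 to 277 by replicate) moved by less than 1.5 times in every setting run. RE1 matches in 200 bp windows of the peaks numbered 6, or 4 to 6 by replicate, 5 on the shorter list, 4 with at most 1 mismatch and 9 over whole peaks. By gene, mean heights stayed within 1 SD of the replicates at 34 of 34 on the shorter list, 37 of 39 with 500 bp and 36 of 39 with 2000 bp, and at 8 of 39 for summed heights. The count was 38 of 39 with peak midpoints and 33 of 38 with gene 5′ ends alone. With replicate 2 scaled to the median of paired peaks it was 28 of 39, and 11 moved. No paired analysis was possible because there is only 1 group. With 2 replicates the spread is poorly known, and the labels do not say if the pools have animals in common.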
